A study of Homo sapiens with 50 samples.

Results

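The 10 immediate early genes EGR1, FOS, FOSB, FOSL1, JUN, JUNB, IER2, IER3, NR4A1 and NR4A2 were followed across all 10 groups of the series. They are 10 of 25940 gene names on the array, of which 10378 were tested. A gene was taken by its symbol in the array annotation, and every probe that is not a control was used, which gave 12 features for the 10 genes. Gene expression was measured 4 h after irradiation in H1299 cells, a human non-small cell lung carcinoma line that lacks p53, and in H1299shRAD9 cells, the same line with a stably integrated short hairpin RNA against RAD9 mRNA. Each line had 5 groups of 5 samples. CTL cells were not irradiated (0 Gy). DBP and DBN cells were hit directly by 1 Gy of α particles, and BP and BN cells were their bystanders, which shared the dish and the medium on another Mylar surface and were not hit. Dishes were sorted by the micronuclei counted in the bystander cells, so that DBP and BP came from bystander positive dishes and DBN and BN from bystander negative dishes. The study's methods give 2 stable transfectants for H1299shRAD9, and which of them gave each sample is not in the labels. The medium was replaced with fresh medium just before irradiation. RNA came from whole layers of cells, so fewer responding cells and less RNA per cell cannot be told apart.

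Immediate early genes are transcribed within minutes of a stimulus, from transcription factors that are already in the cell, and most of their transcripts are short-lived. Signals through the MAPK cascade act on serum response factor and its partners at CArG boxes, and signals through cyclic AMP and calcium act on CREB at cyclic AMP response elements. FOS, FOSB and FOSL1 pair with JUN or JUNB to form the AP-1 transcription factor, EGR1 is a zinc finger factor, and NR4A1 and NR4A2 are orphan nuclear receptors. IER2 is a small nuclear protein, and IER3 is a regulator of survival and stress signaling.

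The promoters of EGR1, FOS and FOSB are shown because the first differed from CTL in the largest number of groups and the other 2 ran closest to it among the 10 genes in H1299shRAD9 cells. RefSeq promoters of build GRCh38.p14 were held for 7 of the 10 genes, with 2 starts for NR4A1. The 250 bases before the start are given 5′ to 3′, with CArG boxes and the core of the cyclic AMP response element (TGACG) in capitals on either strand.
EGR1, chr5:138465229-138465478, plus strand: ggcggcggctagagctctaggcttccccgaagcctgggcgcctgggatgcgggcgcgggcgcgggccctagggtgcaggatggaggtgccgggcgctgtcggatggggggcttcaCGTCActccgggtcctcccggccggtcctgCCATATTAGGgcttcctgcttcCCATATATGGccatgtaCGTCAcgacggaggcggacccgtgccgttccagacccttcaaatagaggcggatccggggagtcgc
FOS, chr14:75278578-75278827, plus strand: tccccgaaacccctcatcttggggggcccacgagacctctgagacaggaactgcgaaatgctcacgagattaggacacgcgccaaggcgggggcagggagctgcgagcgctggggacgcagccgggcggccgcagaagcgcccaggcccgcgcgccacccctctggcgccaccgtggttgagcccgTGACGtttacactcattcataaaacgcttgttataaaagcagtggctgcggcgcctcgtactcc
FOSB, chr19:45467746-45467995, plus strand: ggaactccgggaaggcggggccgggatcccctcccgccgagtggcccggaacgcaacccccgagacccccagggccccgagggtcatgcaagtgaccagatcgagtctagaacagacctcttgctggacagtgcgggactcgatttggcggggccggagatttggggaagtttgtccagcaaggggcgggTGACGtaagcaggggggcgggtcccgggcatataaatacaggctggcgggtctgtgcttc

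The EGR1 window held 2 CArG boxes, 105 to 96 and 83 to 74 bases before the start, and none was found in the windows of the other 6 genes. A CArG box was present in 1.16% of all 35116 promoter windows of the same length. The core TGACG was present 2 times for EGR1, at 135 to 131 and 66 to 62 bases before the start, and 1 time each for FOS (64 to 60), FOSB (60 to 56), JUN, JUNB and IER2. Neither of the NR4A1 windows held one. It was present in 21.2% of all windows. The full cyclic AMP response element TGACGTCA (1.65% of all windows), the AP-1 site TGACTCA or TGAGTCA (4.2%) and the EGR1 site GCGTGGGCG or GCGGGGGCG (5.37%) were searched on both strands too, and none of them was found in the 8 windows. The full element contains the core. These matches are descriptions of the letters only. Bases farther upstream were not searched, so a missing match, as for the CArG box of FOS, says nothing about sites beyond the window.

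Levels are log2 of the processed intensity of a feature relative to the median of its array. A feature was called differentially expressed at p under 0.005 between cell lines, or under 0.006 in the other comparisons, with a false discovery rate under 10%. Of the 12 features, 11 passed the criteria on background and variation. The second NR4A2 feature did not, since it was well above background on 32 of 50 arrays. The FOSB feature was well above background on 49 arrays and the other 10 on all 50. No spot of these genes was saturated. The probes, 60 bases each on build hg19, lie at chr5:137804891-137804950 for EGR1, chr14:75748214-75748273 for FOS, chr19:45978205-45978264 for FOSB and chr12:52453226-52453285 for NR4A1, and exon annotation of that build was not used here. On the 50 arrays, 55.1% to 83.2% of the probes were well above background, and the highest share was on replicate 1 of H1299 DBN, which stood apart from the next array at 73.0%. RAD9A mRNA in CTL was 3.34 to 3.85 in H1299shRAD9 and 3.82 to 4.18 in H1299, a mean difference of −0.36 (exact permutation p = 0.0159, 2-sided), and it was outside the 1.3-fold criterion. All 6 carcinoma cell markers looked for, KRT8, KRT18, KRT19, VIM, ITGB1 and ACTB, were well above background on all 50 arrays. Of 8 markers of other cell types, PTPRC, CD68 and CDH5 were too, DCN was on 44 arrays, CD3E on 38, COL1A1 on 8, PECAM1 on 2 and COL3A1 on 1. PTPRC was higher and CD68 lower in H1299shRAD9 than in H1299 CTL cells, and their part in the results was not tested.

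The level of EGR1 was higher after irradiation than in CTL in H1299shRAD9 cells, in bystanders as well as in directly irradiated cells of bystander negative dishes. It was differentially expressed in 3 of the 4 irradiated groups, at 1.80-fold in BP, 1.79-fold in DBN and 1.96-fold in BN. In CTL, the EGR1 levels of replicates 1 to 5 were 2.56, 2.43, 3.99, 3.93 and 3.84. In BN they were 3.37, 3.53, 4.90, 4.91 and 4.90. In the plot of levels by group, the groups overlap because the replicates are far apart, while each BN sample lies above the CTL sample of the same number.

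The 5 BN samples were higher than their CTL samples by 0.80 to 1.11, the mean difference was 0.97 ± 0.09 (SE of the fit, n = 5 pairs), and the adjusted p was 0.0768. The SD of the 5 differences was 0.12. Only 0.0492% of the 12186 features tested were differentially expressed in BN, that is 6 features, 1 of them EGR1. In BP the EGR1 levels were 3.32, 3.42, 5.45, 4.45 and 4.34, and the difference was 0.85 ± 0.15 (SE, n = 5 pairs, adjusted p = 0.0466). The smallest of the 5 differences was 0.50, and 2.33% of all features were differentially expressed in BP. In DBN the levels were 3.63, 2.78, 5.28, 4.86 and 4.39, with a difference of 0.84 ± 0.15 (SE, n = 5 pairs, adjusted p = 0.0529) and 4.78% of all features differentially expressed. All 5 DBN samples were above CTL, by 0.35 to 1.29.

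**Figure D1:**
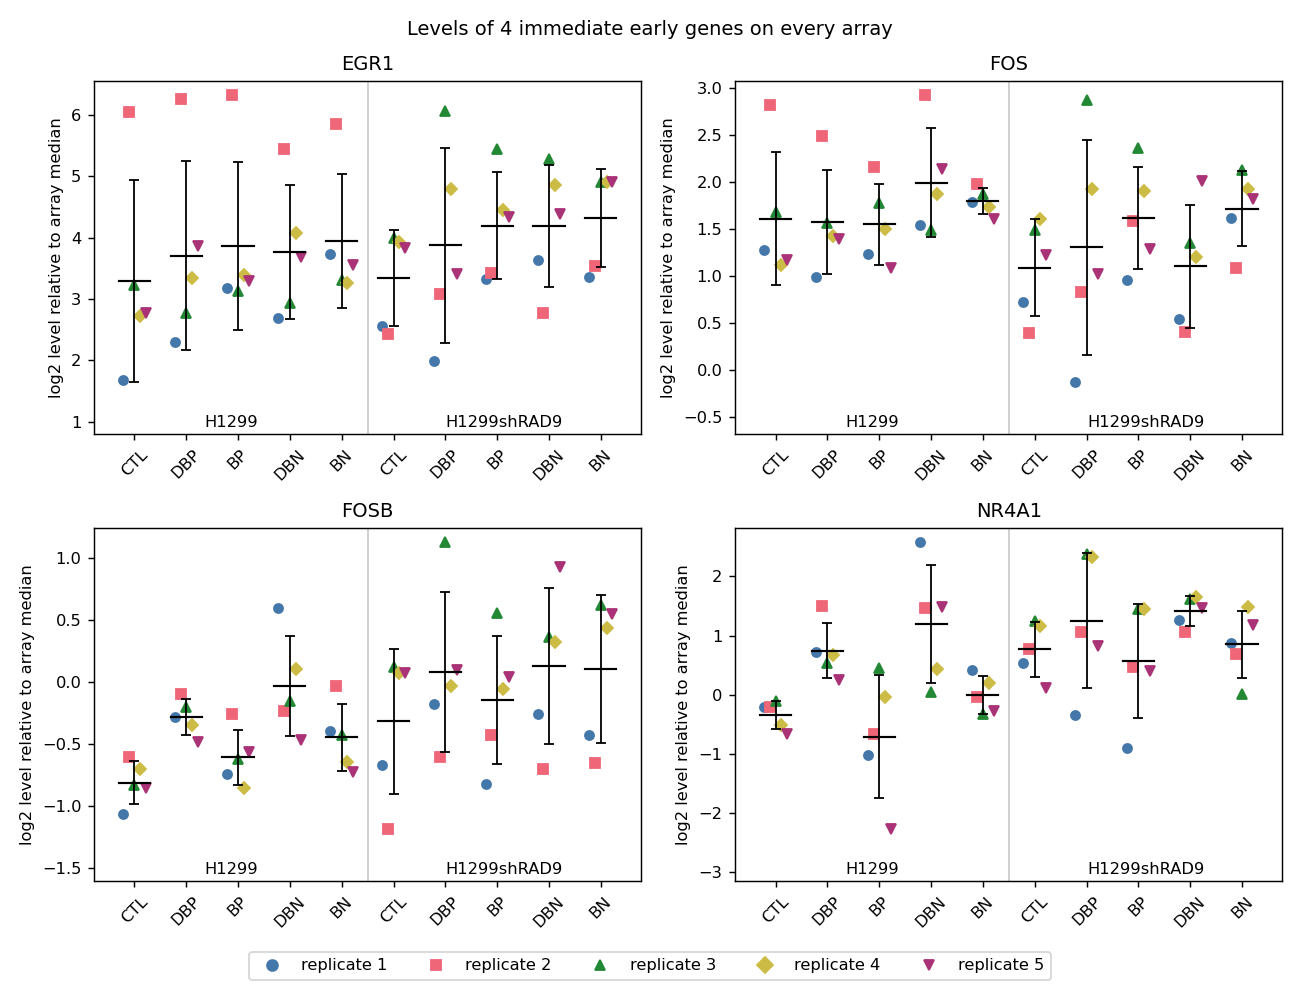
Levels of EGR1, FOS, FOSB and NR4A1 on all 50 arrays (y axis, log2 relative to the array median) in the 5 groups of H1299 (left of the gray line) and H1299shRAD9 (right), with a symbol for each replicate number and bars for the mean and SD of 5 samples. EGR1 of H1299 replicate 2 lies between 5.45 and 6.32 in all 5 groups, apart from the other H1299 samples, and EGR1 in H1299shRAD9 replicates 3 to 5 lies mostly above replicates 1 and 2.

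In DBP of H1299shRAD9, EGR1 was at 2.0, 3.09, 6.07, 4.80 and 3.41, which is below CTL in replicates 1 and 5 and above it in the other 3. The difference was 0.52 (95% interval −0.28 to 1.33, adjusted p = 0.526), and EGR1 was not differentially expressed there, where 1.76% of all features were. Whether EGR1 differed between DBP and DBN was tested on its own. The difference was −0.32 (95% interval −1.78 to 1.15), which did not pass the test, and with the replicate block its interval was −1.03 to 0.40. All 4 comparisons share the same 5 CTL samples, so a low CTL sample raises EGR1 in each of them. The EGR1 calls needed the pairing by replicate number: without the replicate block the differences were the same and the adjusted p values were 0.901 in BP, 0.695 in DBN and 0.538 in BN. Leaving out any 1 replicate left BN at 0.94 to 1.02, BP at 0.69 to 0.93 and DBN at 0.73 to 0.96, with EGR1 still differentially expressed 0 of 5, 1 of 5 and 2 of 5 times.

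The slide was a further unit, because arrays of a slide are processed together and the replicates were spread over 13 slides. For BN, the CTL sample of the same number was on the same slide in 2 pairs, with differences of 0.80 and 1.07. For BP it was 2 pairs, with 0.50 and 0.52, and for DBN 1 pair, with 1.07. With the slide in place of the replicate block, the BP difference was 0.50, compared with 0.85 in the paired test, and no group was called.

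In H1299 cells EGR1 was 0.42 to 0.65 higher than CTL on average in the 4 irradiated groups and was called in none of them. The levels in H1299 CTL were 1.69, 6.04, 3.23, 2.72 and 2.78, so that replicate 2 was far above the rest. In H1299 BN they were 3.74, 5.86, 3.31, 3.26 and 3.56, and 4 of 5 samples were above CTL. The difference between the lines in the response of EGR1 was 0.11 to 0.36 over the 4 exposures, with the widest interval in DBP (−0.87 to 1.08) and adjusted p values of 0.819 to 0.960.

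Most of the spread of EGR1 followed the replicate number. In H1299, 87.5% of the sum of squares over the 25 arrays lay between replicate numbers and 3.34% between the 5 exposures. In H1299shRAD9 it was 72.2% and 12.3%. The mean over the 5 groups of replicate 2 was 5.98 in H1299, with the other replicates at 2.72 to 3.44, and in H1299shRAD9 replicates 1 and 2 were at 2.98 and 3.05 and replicates 3 to 5 at 4.18 to 5.14. Group means of EGR1 in descending order were 4.32 ± 0.80 in H1299shRAD9 BN, 4.2 ± 0.87 in BP and 4.19 ± 1.00 in DBN, then 3.94 ± 1.09 in H1299 BN. They went on with 3.87 ± 1.58 in H1299shRAD9 DBP, 3.86 ± 1.37 in H1299 BP, 3.77 ± 1.09 in H1299 DBN and 3.71 ± 1.54 in H1299 DBP. CTL was lowest in both lines, at 3.35 ± 0.78 in H1299shRAD9 and 3.29 ± 1.64 in H1299 (SD, n = 5). Each step in this order was smaller than the SDs of its neighbours.

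FOS, the partner of JUN in classic AP-1, was higher than CTL in the H1299shRAD9 bystanders without passing the threshold. In CTL, FOS was at 0.72, 0.39, 1.49, 1.6 and 1.22, and in BN at 1.61, 1.08, 2.13, 1.92 and 1.82. All 5 BN samples were above their CTL samples, by 0.32 to 0.89, and the mean difference of 0.63 ± 0.11 (SE, n = 5 pairs) had an adjusted p of 0.156. In BP the difference was 0.53 ± 0.17, again with 5 of 5 samples above CTL (adjusted p = 0.237). In the directly irradiated cells it was 0.22 in DBP and 0.01 in DBN. FOS in DBN was below BN in 4 of 5 pairs, with a difference of −0.61 ± 0.18 (SE, n = 5 pairs, adjusted p = 0.824). In H1299 the differences from CTL were −0.06 to 0.38, and none passed the test.

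FOSB was higher than CTL by small amounts that did not pass the test. In H1299shRAD9 BN it was 0.42 ± 0.09 above CTL (SE, n = 5 pairs, 5 of 5 samples higher, adjusted p = 0.156), and in DBN 0.45 ± 0.12 (5 of 5, adjusted p = 0.110). In H1299 CTL, FOSB was at −1.07, −0.61, −0.83, −0.70 and −0.86. In H1299 DBP it was at −0.28, −0.09, −0.20, −0.35 and −0.49, so that the groups did not overlap, as in 1.17% of all features. The difference of 0.53 ± 0.15 (SE, n = 5 pairs) had an adjusted p of 0.585, and 0.0574% of all features were called there. In H1299 DBN it was 0.78 ± 0.26 (5 of 5, adjusted p = 1.00). FOSB had 57.1% of its spread between exposures in H1299 and 9.7% in H1299shRAD9.

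EGR1 and FOS ran together over the arrays, which the plot of EGR1 against FOS shows. Pearson's r was 0.86 (Spearman's rho 0.82) over the 25 H1299shRAD9 arrays and 0.79 without the 2 arrays farthest in EGR1. In H1299 it was 0.81 (rho 0.76), and 0.57 (rho 0.55) over the 20 arrays left without replicate 2. Arrays of the same replicate number tend to be alike. After removing the mean of each replicate number in each line, r was 0.58 over 50 arrays. For EGR1 and FOSB, r was 0.83 in H1299shRAD9, 0.30 in H1299 and 0.40 after the same removal. Not all of the 10 genes ran with EGR1. In H1299shRAD9, r with EGR1 was −0.53 for IER3, −0.52 for FOSL1 and −0.38 for NR4A2, and 0.39 to 0.86 for the rest. For IER3, FOSL1 and NR4A2 it was 0.80, 0.03 and 0.17 in H1299, and 0.35, −0.07 and 0.16 after the same removal. Among genes outside the 10, the features nearest to EGR1 over all 50 arrays were PELI1 (r = 0.88), MAFF (0.85), ZNF558 (0.81), the unnamed transcript ENST00000416851 (0.80) and SGTB (0.80), out of 10368 genes compared. MAFF is a small partner of AP-1 type factors, and PELI1 is a ubiquitin ligase of innate immune signaling. These values hold the same replicate 2 of H1299.

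**Figure D2:**
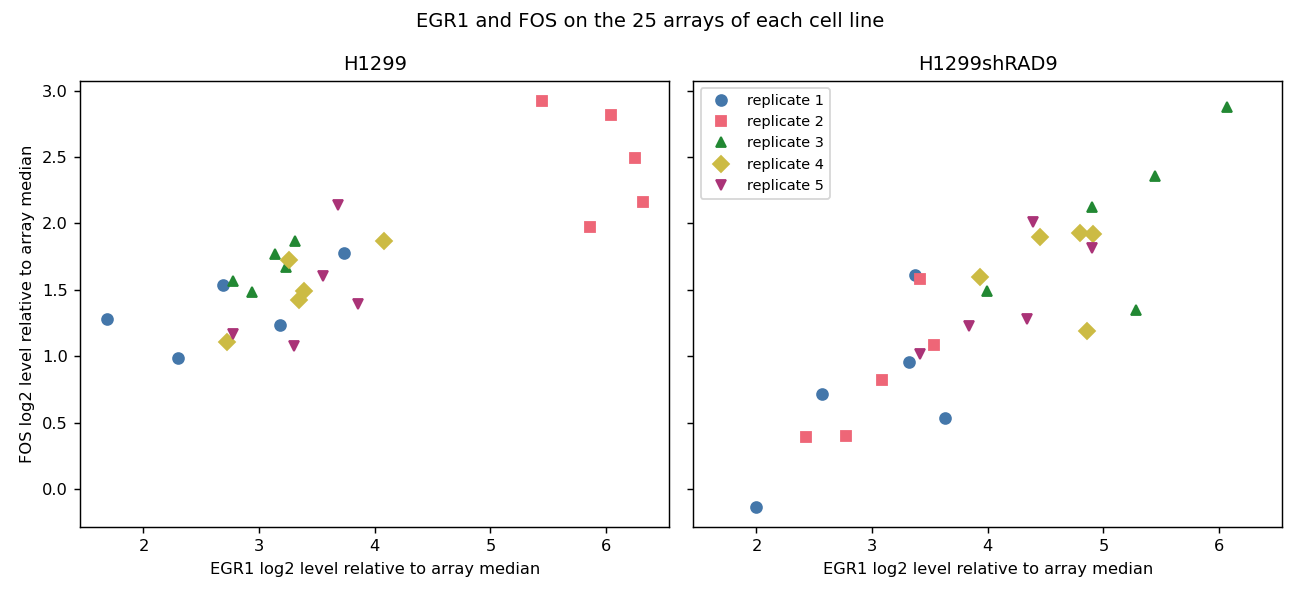
EGR1 (x axis) against FOS (y axis), both log2 relative to the array median, on the 25 arrays of each cell line, with a symbol for each replicate number. The 5 arrays of H1299 replicate 2 form a cluster above 5 on the EGR1 axis, and in H1299shRAD9 the replicates lie along 1 band.

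NR4A1 was higher in directly irradiated cells than in the bystander cells of the same replicate number in both cell lines and for both dish outcomes. The study matched direct and bystander samples, and the labels do not say that a number is 1 dish. Same-numbered arrays correlated at 0.25 to 0.61 on average, with the lowest single pair at −0.09 in H1299 DBN and BN. NR4A1 was higher in all 20 pairs, by 0.09 to 2.53. In H1299 BP, NR4A1 was at −1.03, −0.67, 0.45, −0.05 and −2.27, and in DBP of the same numbers at 0.72, 1.51, 0.54, 0.68 and 0.25. DBP was above BP in each pair, and in the group as a whole 1 BP sample reached the DBP range.

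The mean difference in H1299 was 1.45 ± 0.34 between DBP and BP (2.74-fold, adjusted p = 0.723) and 1.21 ± 0.31 between DBN and BN (2.31-fold, adjusted p = 1.00; SE, n = 5 pairs each). In H1299shRAD9 it was 0.68 ± 0.11 between DBP and BP (1.6-fold, adjusted p = 0.158) and 0.57 ± 0.20 between DBN and BN (1.48-fold, adjusted p = 1.00). None of the 10 genes was differentially expressed in these 4 comparisons. At an unadjusted p under 0.05 there were 7 of 40 tests, 4 of them NR4A1. Among all 12186 features, 563, 314, 739 and 410 were under that cut, in H1299shRAD9 DBP and DBN and in H1299 DBP and DBN. Of all features 0.0985%, 0.131%, 0% and 0% were differentially expressed, in H1299shRAD9 DBP and DBN and in H1299 DBP and DBN. On simulated data, 90%, 87.5%, 66.5% and 13% of features changed by 1 on the log2 scale were called, in the same order.

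**Figure D3:**
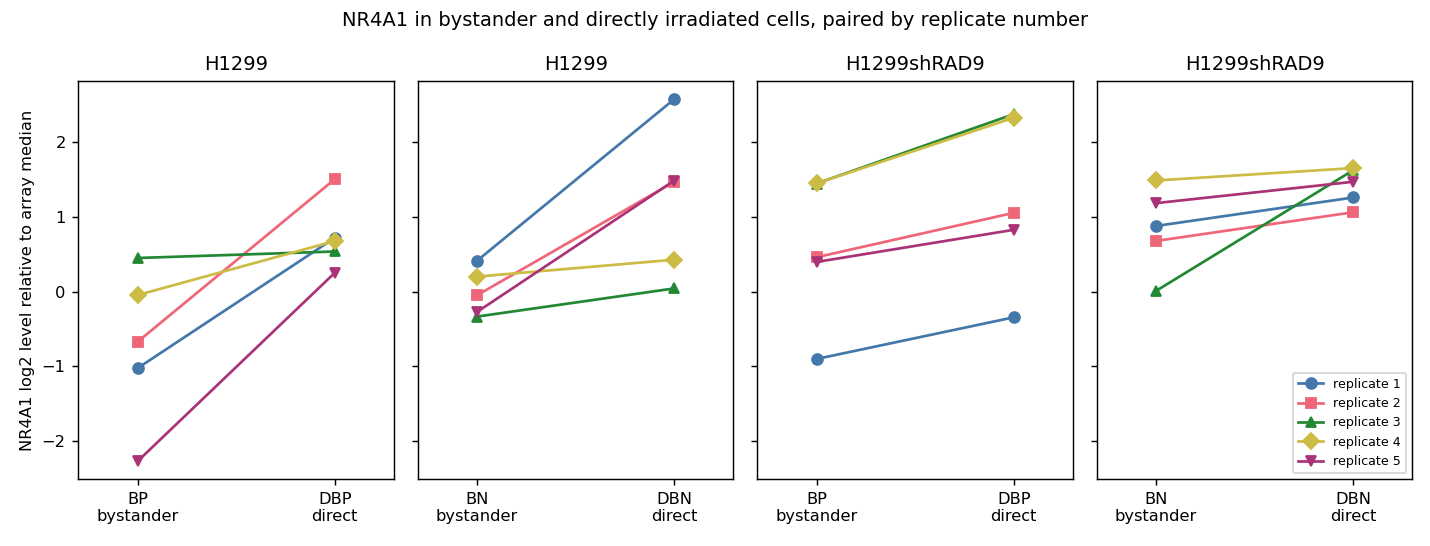
NR4A1 (y axis, log2 relative to the array median) in the bystander and the directly irradiated cells of the same replicate number, with a line for each of 20 pairs, in 4 panels by cell line and dish outcome. All 20 lines rise from bystander to direct, by 0.09 to 2.53.

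Since the direction was the same in every pair, both dish outcomes were pooled, a fit that was chosen after the values had been seen and is therefore no independent evidence of the direction. With the pair as a block, NR4A1 was 0.98 ± 0.16 higher in direct cells over 20 pairs (95% interval 0.65 to 1.3, adjusted p = 0.00045), and 2% of all features were differentially expressed. Within H1299 it was 1.33 ± 0.24 (adjusted p = 0.0389), with 0.312% of features called, and within H1299shRAD9 0.62 ± 0.12 (adjusted p = 0.0245), with 1.16% called. Within lines these calls were lost under some alternatives, and were kept under 11 of 16 in H1299 and 12 of 16 in H1299shRAD9. The pooled fits took same-numbered pairs of both dish outcomes as independent. Same-numbered arrays of both outcomes correlated at 0.19 to 0.58 on average, and what this does to the SEs, intervals and p values was not tested. The difference between the lines of −0.71 (95% interval −1.31 to −0.11) had an adjusted p of 0.999. Of 11898 features with a value on every array, 0.345% had 1 direction in all 20 pairs, 38 of them lower in direct cells and 3 higher, which were NR4A1, PELI3 and ZNF703. Genes other than NR4A1 are named here after their values were seen. The 38 included AURKA, CCNF and CENPA, which act in mitosis.

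The direct and the bystander sample were on the same slide in 15 pairs, and NR4A1 was higher in the direct sample in 15 of these, by at least 0.17. Without replicate 1, which holds the H1299 DBN array that stood apart, the difference over the other pairs was 0.92, and leaving out each replicate number in turn gave 0.91 to 1.1, with NR4A1 differentially expressed each time. The NR4A1 feature has a GC content of 20%, at or below which lie 0.295% of the features tested, whose median was 43.3%. The 154 features with at most 25% GC were lower than CTL in H1299 BP, with a median of −0.28 against −0.07 for all features, and in H1299 they were 0.24 higher in DBP than in BP. In DBN against BN of H1299 their median was −0.05, and over the 20 pairs it was 0.06, with 0% of them above NR4A1. The part of base composition in the level of NR4A1 was not tested further.

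Against CTL, NR4A1 was called in 1 of the 4 directly irradiated groups, H1299shRAD9 DBN. There it was at 1.26, 1.06, 1.63, 1.65 and 1.47, compared with 0.54, 0.77, 1.24, 1.16 and 0.11 in CTL. All 5 were above CTL, and the difference of 0.65 ± 0.16 (1.57-fold, SE, n = 5 pairs) was called with an adjusted p of 0.0956, close to the limit. It was not called when any 1 replicate was left out, with values of 0.47 to 0.74 over all alternatives. In DBP the difference was 0.48 with 4 of 5 samples higher, in BP −0.19 and in BN 0.08.

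In H1299 CTL, NR4A1 lay between −0.66 and −0.11, and in DBP between 0.25 and 1.51, without overlap, as was the case for 1.17% of all features. This difference of 1.08 ± 0.18 (2.11-fold, SE, n = 5 pairs) had an adjusted p of 0.141. In DBN the levels were 2.58, 1.47, 0.04, 0.43 and 1.49, and the difference of 1.54 ± 0.34 had an adjusted p of 0.636, and of 1.23 without replicate 1 (adjusted p = 0.765). Here 0.0164% of all features were differentially expressed. On simulated data, 0% of 200 features changed by 1 on the log2 scale were called in H1299 DBN against CTL. A missing call in that comparison therefore says little. None of the 10 genes was called in the 4 H1299 comparisons with CTL, with 9 of 40 tests at an unadjusted p under 0.05, and 0% of all features were called in BP and in BN. The features under 0.05 numbered 763, 711, 423 and 339 of 12186 in DBP, BP, DBN and BN. With all groups in 1 fit, 3 were called in H1299 DBN, which were NR4A1, NR4A2 and FOSB. The share of all features called in that fit is not given here, and the 0.0164% above belongs to the main fit. Whether the 3 calls stand out from all features therefore cannot be told.

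NR4A2, the close relative of NR4A1, differed in the same direction as NR4A1 in H1299. It was higher in direct than in bystander cells in 10 of 10 H1299 pairs, by 0.45 ± 0.15 in DBP against BP (adjusted p = 0.723) and by 0.55 in DBN against BN, and in 16 of 20 pairs in all. The second NR4A2 feature, which did not pass the criteria, was 0.04 higher in DBP than in BP of H1299 (3 of 5 pairs) and 0.46 higher in DBN than in BN (4 of 5 pairs). For the first NR4A2 feature, the difference over the 20 pairs together was 0.31 ± 0.09 (adjusted p = 0.0859). That difference was called in 7 of 15 alternatives, and in 1 of the 5 that left out a replicate number. In H1299shRAD9 the first feature was 0.18 higher in DBP than in BP and 0.07 higher in DBN than in BN. NR4A3, the third receptor of the family, was 0.34 higher in direct cells over the 20 pairs and was called as well, where 2% of all features were. NR4A3 was called within H1299 (0.54) and not within H1299shRAD9. In its list of other immediate early transcription factors, 8 of 14 were higher over the 20 pairs, with a median of 0.07. Of 18 tested immediate early genes with other roles, NFKBIA (0.30) and PLK2 (0.29) were called higher there and GEM (−0.37) lower. Between lines, NR4A2 in DBN was at 0.07 to 0.49 in H1299 and at −0.72 to −0.26 in H1299shRAD9, without overlap, where 7.55% of all features did not overlap and 5.02% were called. This difference of −0.73 ± 0.23 missed the threshold with an adjusted p of 0.101 and was called in 4 of 14 alternatives.

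**Figure D4:**
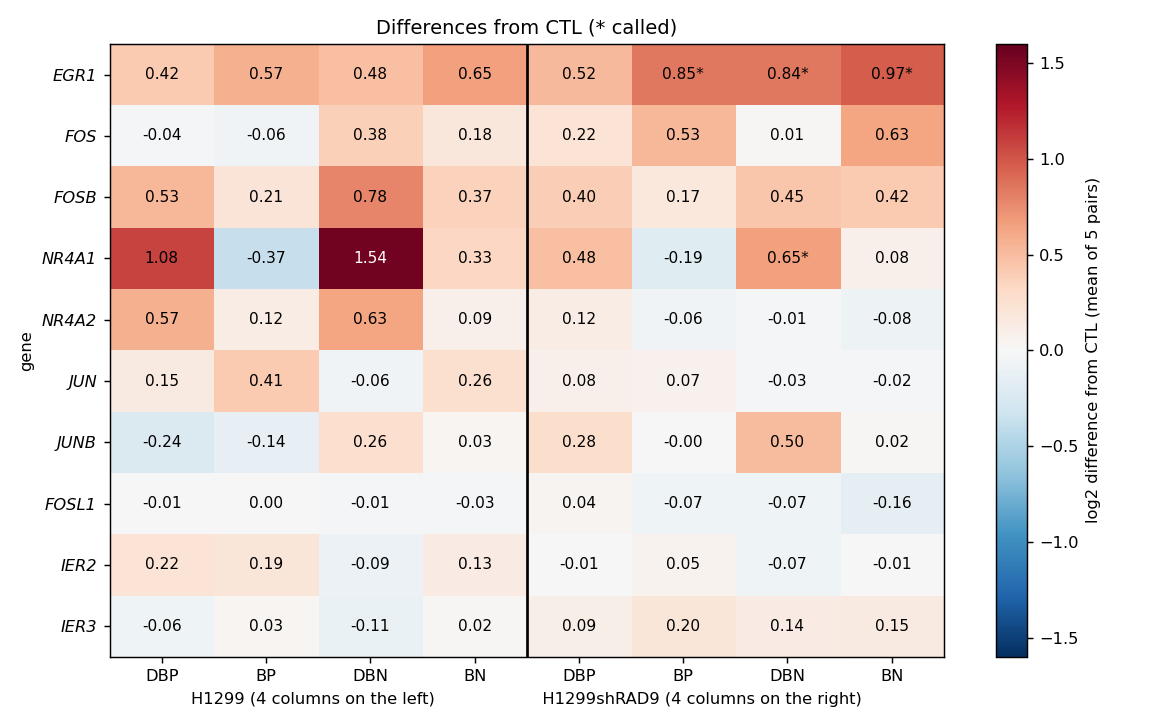
Mean log2 difference from CTL over 5 pairs (color and number) for the 10 genes (rows) in the 4 irradiated groups of each line (columns), with * for differentially expressed. The 4 marked cells are EGR1 in H1299shRAD9 BP, DBN and BN, and NR4A1 in H1299shRAD9 DBN, and the highest value is NR4A1 in H1299 DBN (1.54).

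JUN, JUNB and FOSL1, the other AP-1 subunits, and IER2 and IER3 were not called against CTL in any group. JUNB was higher in all 5 samples of H1299shRAD9 DBN (0.50) and DBP (0.28). FOSL1 differed from CTL by −0.16 to 0.04, IER2 by −0.09 to 0.22, and IER3 by −0.11 to 0.20, with the first of the 2 IER3 features. With the second it was −0.35 to 0.21. The lowest of these was in H1299 DBP, with 1 of 5 samples above CTL, where the first feature was at −0.06. The 2 IER3 features correlated with r = 0.84 over 50 arrays, and the 2 NR4A2 features with r = 0.52. JUN was lowest in replicate 1 of H1299 in CTL (3.32), DBP (2.50) and DBN (2.27). In H1299shRAD9, 9 of the 10 genes were above CTL in DBP and 6 of 10 in each other group, with medians in the order DBP, BP, DBN, BN of 0.17, 0.06, 0.08 and 0.05, beside 0.02, 0.00, −0.02 and −0.01 for all features. In H1299 it was 6, 7, 6 and 9 of 10, with medians of 0.18, 0.08, 0.32 and 0.15, beside 0.01, −0.07, −0.10 and −0.04.

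In unirradiated cells, NR4A1 and IER2 were higher in H1299shRAD9 than in H1299, and the other 8 genes were not called. NR4A1 was at 0.54, 0.77, 1.24, 1.16 and 0.11 in H1299shRAD9 CTL, and at −0.21, −0.21, −0.11, −0.51 and −0.66 in H1299 CTL. The lowest H1299shRAD9 sample was above the highest H1299 sample. The difference of 1.1 ± 0.22 (2.15-fold, SE, n = 5 each) had an adjusted p of 0.00678, and it was called without each of the replicates in turn. IER2 was at 10.20, 10.24, 10.70, 10.63 and 10.44 in H1299shRAD9 and at 9.83, 10.08, 9.76, 9.79 and 9.70 in H1299, again without overlap. Its difference of 0.61 ± 0.15 (1.53-fold) had an adjusted p of 0.0166 and was called in 2 of 5 cases when a replicate number was left out. These 2 of 10 genes stand beside 15.5% of all features called and 16.5% without overlap, so the share among the 10 genes is near that of all features.

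**Figure D5:**
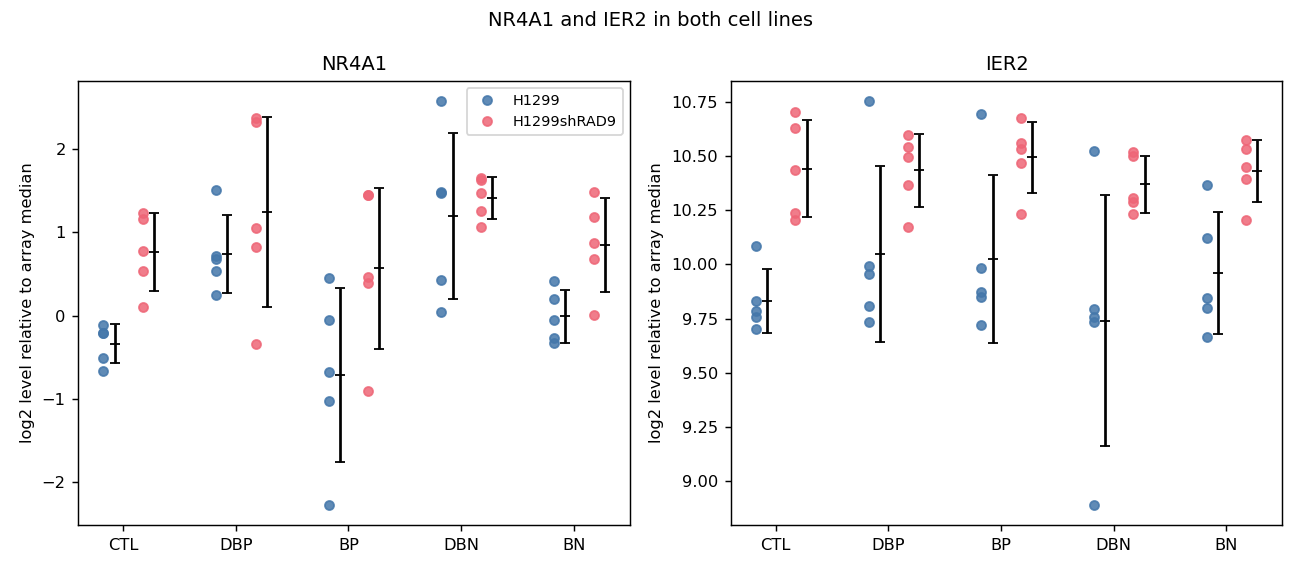
NR4A1 and IER2 (y axes, log2 relative to the array median) in H1299 and H1299shRAD9 in the 5 groups, with a point for each sample and a bar for the mean and SD of 5 samples. The lines do not overlap in CTL for either gene, and they overlap for both genes in the 4 irradiated groups.

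After irradiation, NR4A1 in BN was still 0.86 ± 0.26 higher in H1299shRAD9 (1.81-fold, adjusted p = 0.0571), 1 of 10 genes where 8.41% of all features were called. It was called in 5 of 15 alternatives. In BP the difference was 1.28 and in DBP 0.51 and DBN 0.21, none of them called. No gene of the 10 was called in DBP, BP and DBN, where 6.79%, 7.52% and 5.02% of all features were. IER2 was 0.39 to 0.63 higher in H1299shRAD9 in the 4 irradiated groups, with no call. The lines shared no slide in CTL, DBP, DBN and BN and 1 slide in BP, so line and slide cannot be told apart in these comparisons. Per the study's methods, H1299shRAD9 cells were virus-infected clones selected in puromycin, and the H1299 cells were untransfected. Vector, selection and clone therefore cannot be told apart from the hairpin either. The 154 features of at most 25% GC were 0.27 higher in H1299shRAD9 CTL, against 0.10 for all features, and 0% of them were above NR4A1.

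Group means of NR4A1 in descending order were 1.42 ± 0.25 in H1299shRAD9 DBN, 1.25 ± 1.14 in H1299shRAD9 DBP and 1.2 ± 1.00 in H1299 DBN. Then came 0.85 ± 0.56 in H1299shRAD9 BN, 0.76 ± 0.46 in H1299shRAD9 CTL, 0.74 ± 0.47 in H1299 DBP and 0.57 ± 0.97 in H1299shRAD9 BP. The lowest were H1299 BN at −0.01 ± 0.32, H1299 CTL at −0.34 ± 0.24 and H1299 BP at −0.71 ± 1.04 (SD, n = 5). The gap between H1299shRAD9 BP and H1299 BN was the widest, and the step from H1299 BN to H1299 CTL was the only 1 above the larger SD of its neighbours, by a small margin. The features nearest to NR4A1 over 50 arrays were LOC100128593 (r = 0.80), CAMLG (0.79), TLE1 (0.77), CAND1 (0.76) and ZNF225 (0.76). Their GC contents were 40%, 26.7%, 26.7%, 35% and 41.7%.

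Whether the response to irradiation differed between the lines was tested as an interaction for each exposure. None of the 10 genes and 0% of all features were called for any exposure by limma, with 2 of 40 tests of these genes at an unadjusted p under 0.05. Under that cut were 1051, 851, 1102 and 947 of 12186 features in DBP, BP, DBN and BN. For NR4A1 in DBN the interaction was −0.89 (95% interval −1.79 to 0.01). Between bystander positive and negative dishes no gene of the 10 and 0% of all features were called in either line, with 0 of 40 tests at an unadjusted p under 0.05 by limma. All features under 0.05 numbered 60 (direct) and 46 (bystander) of 12186 in H1299shRAD9, and 59 and 201 in H1299. The comparison of dish outcomes was unpaired, although same-numbered arrays correlated at 0.19 to 0.58 on average. With the replicate block 0 of the 10 genes were called as well, with 2 of 40 tests at an unadjusted p under 0.05, and the share of all features at that cut is not given here. The interval for EGR1 in BP against BN was −1.1 to 0.84 unpaired and −0.52 to 0.27 with the block in H1299shRAD9, and −1.43 to 1.27 and −0.52 to 0.36 in H1299.

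The rest of the pathway was followed by lists. Of 21 other immediate early transcription factors, 14 were tested. In H1299shRAD9, KLF4 was called in DBP (0.51; 1.76% of all features called) and MAFF in DBN (0.54; 4.78%), both higher, and none in BP and BN, with 9 to 12 of 14 above CTL and medians of 0.17 to 0.25. Between lines in CTL, MYC (0.86) and KLF2 (0.85) were higher and JUND (−0.72) lower in H1299shRAD9, 3 of 14 where 15.5% of all features were called. After irradiation KLF2 was called higher in H1299shRAD9 in each of the 4 groups, by 0.81 to 1.31, MYC in DBP (0.98) and BP (0.71), and SRF in DBP (0.75). Of 18 tested immediate early genes with other roles, BTG2, a growth suppressor, was called lower in H1299shRAD9 DBN (−0.47). After irradiation CTGF and CYR61, targets of serum response factor and YAP, were higher in H1299shRAD9 than in H1299 in DBP (1.39 and 1.00) and in BP (1.05 and 0.87), where 6.79% and 7.52% of all features were called, and they were not called in DBN and BN. In BP, GADD45B was called higher (0.68) and BTG2 lower (−0.68) in H1299shRAD9. Of 13 MAPK feedback genes such as the DUSP phosphatases, 0 were called against CTL in any group, with medians of −0.15 to 0.01, and the same was true for the 12 tested genes upstream, from EGFR to SRF, with medians of −0.19 to 0.09. Between lines in DBP, SRF was called higher (0.75) and EGFR lower (−0.66) in H1299shRAD9, where 6.79% of all features were called. In H1299, no gene of the 5 lists was called against CTL. The AP-1 partners and cofactors (15 tested) shared MAFF and JUND with the first list and added no other call.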

How the data were processed

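The authors labeled RNA of each sample with Cy3, hybridized it alone to an Agilent human array and read the scans with Agilent Feature Extraction. Per the file headers, the deposited intensities were background subtracted and corrected for a trend over the array, and the deposited flags mark spots as outliers or as well above background. The authors' own processed values, deposited on the log2 scale for 9502 features, were an alternative. Spots of a probe were averaged without outlier spots, put on the log2 scale and centred on the median of the array over probes that are not controls. Features not well above background, or without a spot left, on 25% or more of the 50 arrays were left out (20079 kept), as were those that differed 1.3-fold from their median on fewer than 20% of the arrays (12186 kept). A gene with 2 features is given by the brighter one. Array positions are hg19 and promoters GRCh38.p14.

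Groups were compared with limma 3.58.1 in R 4.3.3 (lmFit, eBayes) and Benjamini-Hochberg adjustment over all features. The replicate number was a block against CTL, in interactions (with cell line) and between direct and bystander cells, after the matched samples of the study. Same-numbered arrays, after removing group means, correlated at 0.49 to 0.54 on average against CTL in H1299shRAD9, at lowest 0.22, and at 0.14 to 0.43 in H1299, at lowest −0.21. Direct and bystander arrays correlated at 0.25 to 0.61. Cell lines and dish outcomes were compared unpaired, the latter also with the block. Where nothing says otherwise the spread is that between the 5 samples of a group, and each SE is the moderated one of limma. The 10 genes, the gene lists and the tests were chosen with earlier results of these data known. Named genes are all 10, at most the 3 called genes of the lists with the largest change in a comparison, RAD9A, and the 5 nearest to EGR1 and to NR4A1. BTG2 between lines in BP is named beyond these 3. The cell type markers are named as a check, and PELI3, ZNF703, AURKA, CCNF and CENPA were chosen after their values were seen. The code was tested on simulated data with the spread of the real groups, in which 200 features were changed by 1 on the log2 scale. Against CTL, 83% to 93.5% of these were called in H1299shRAD9. In H1299 it was 73% in DBP, 59% in BP, 81.5% in BN and 0% in DBN. In H1299 DBN against BN it was 13%. A missing call in the H1299 DBN comparisons therefore says little, also beside calls in H1299shRAD9. The number of arrays limits the precision.
Alternatives were other scalings, normexp, other filters, all groups in 1 fit, the authors' values, the block and the slide, and each replicate left out. The slide in place of the block and the pooled dishes were chosen after seeing the data.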

Additional observations from a re-analysis of the deposited data

Results flagged for a closer look

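In 15 of 120 sets of 5 samples (12 features in 10 groups), 1 sample lay apart from the rest, with its gap to the nearest sample as a share of the range of the set given here. Chance gives about 1 in 20. In H1299 replicate 2, EGR1 was high in BN (0.817) and BP (0.921), IER2 in BP (0.731) and DBP (0.747), the first IER3 feature in BN (0.821) and BP (0.813), and the second in BN (0.744). In H1299 replicate 1, JUN was low in CTL (0.741), DBN (0.728) and DBP (0.814), the second IER3 feature was low in DBP (0.735), and FOSL1 was high in CTL (0.745) and low in DBN (0.755). In H1299shRAD9, FOSL1 was high in DBP replicate 2 (0.729) and JUN in BP replicate 5 (0.73).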

How the results depend on the processing

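Counts of calls are over the 10 genes and all comparisons of a kind. The share of all features called under each alternative is not given here. A rise or fall in these counts therefore cannot be told apart from a change in calls among all features. Between lines in CTL, 2 were called, and 1 with quantile normalization, normexp, all groups in 1 fit or the replicate block, and 1 to 3 when a replicate was left out. Between lines after irradiation, 1 was called, and 2 with 75th percentile scaling, quantile normalization, all groups in 1 fit, the authors' values or the replicate block. It was 0 with normexp, the positive and significant mark, or a background criterion of 4 of 5 arrays of a group, and 0 to 3 without a replicate. Against CTL in H1299shRAD9, 4 were called, and 0 with the positive and significant mark, all groups in 1 fit, no replicate block or the slide in its place, and 0 to 1 without a replicate. In H1299, 0 became 3 with all groups in 1 fit. Between direct and bystander cells, 0 became 1 with the authors' values or the slide as a random block, in both cases NR4A1 in H1299shRAD9 DBP against BP. Between dish outcomes, which were compared unpaired, 0 became 3 with the slide as a block, in H1299shRAD9 DBP against DBN, where only slide 3 holds both groups, and stayed 0 with the replicate block. With dishes of both outcomes pooled, 4 were called, and 2 with normexp or no replicate block, 1 with the slide in its place, and 2 to 4 without a replicate. Interactions gave 0 throughout. No direction changed for the named differences followed under every alternative. The cause of these changes was not tested. The slide in place of the block could not be fitted between lines, nor the slide as a random block between lines after irradiation, and all groups in 1 fit was not run for the pooled dishes. The pairing by replicate number decided the calls of EGR1 against CTL. The number of arrays limits precision.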
